A study of Mus musculus with 6 samples.

Results

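The transcripts of 10 genes of the interleukin-1 (IL-1) family were followed in mouse bone marrow-derived macrophages (BMDMs): the ligands Il1a, Il1b and Il18, the soluble inhibitors Il1rn and Il18bp, and the receptor chains Il1r1, Il1r2, Il1rap, Il1rl1 and Il1rl2. The genes were taken by name, and each matched 1 of the 54532 gene rows in the expression table. The study asked how metformin pretreatment alters the early transcriptional response of macrophages to lipopolysaccharide (LPS), the endotoxin of Gram-negative bacteria that signals through TLR4. BMDMs came from C57BL/6 mice and were grown in medium conditioned by L929 cells. There were 3 groups of 2 libraries: untreated cells, cells exposed to LPS alone for 2 h at 100 ng/ml (LPS), and cells kept for 6 h in metformin at 5 mM before the same 2 h of LPS (Met + LPS). No group received metformin without LPS, so the Met + LPS libraries were compared with the LPS libraries.

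IL-1 alpha and IL-1 beta are inflammatory cytokines that bind the receptor IL-1R1, which then recruits the accessory chain IL-1RAP and signals through MyD88 to NF-kappa-B. IL-1 beta and IL-18 are made as inactive precursors that inflammasome-activated caspase-1 cleaves, so a macrophage can hold much transcript without secreting cytokine. The family carries its own brakes: IL-1 receptor antagonist (Il1rn) occupies IL-1R1 without signalling, IL-1R2 is a decoy receptor, and IL-18 binding protein captures free IL-18. Only RNA was measured here.

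LPS raised the transcripts of Il1b, Il1a and the antagonist Il1rn, in that order of fold change, and the levels of Il1rn and Il1b stood closer to each other after metformin pretreatment. Relative to LPS alone, Il1rn rose 1.96-fold in Met + LPS, Il1b was at 59.5% of its LPS level (a call that 7 of 16 alternative fits lost), and Il1a was at 92.6% of it, a difference that did not pass the test. The ratio of Il1rn to Il1b TPM was therefore 3.29 times higher in Met + LPS than in LPS. By TPM, which is scaled for length, Il1b stayed the more abundant of the pair in every stimulated library.

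The sequences just upstream of the starts of the 3 most changed genes are shown because these genes rose together with LPS but had different values after metformin pretreatment. They are the 250 bases before a transcription start in RefSeq (build GRCm38.p6), written 5′ to 3′ on the strand of the gene, and capitals mark matches to the motifs searched. Il1a lies at chr2:129299610-129309972 and its upstream stretch at chr2:129309973-129310222 (minus strand). Il1b lies at chr2:129364570-129371139 and its stretch at chr2:129371140-129371389 (minus strand). Il1rn lies at chr2:24336853-24351494, with stretches at chr2:24336610-24336859 for its first start and chr2:24345041-24345290 for its second, inside the gene (plus strand). The third Il1rn start, at position 24345371, is not shown.
Il1a: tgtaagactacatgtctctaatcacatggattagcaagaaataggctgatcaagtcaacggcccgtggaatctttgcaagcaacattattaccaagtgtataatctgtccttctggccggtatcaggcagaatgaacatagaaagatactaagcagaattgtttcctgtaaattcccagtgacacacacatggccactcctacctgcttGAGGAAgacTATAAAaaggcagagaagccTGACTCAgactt
Il1b: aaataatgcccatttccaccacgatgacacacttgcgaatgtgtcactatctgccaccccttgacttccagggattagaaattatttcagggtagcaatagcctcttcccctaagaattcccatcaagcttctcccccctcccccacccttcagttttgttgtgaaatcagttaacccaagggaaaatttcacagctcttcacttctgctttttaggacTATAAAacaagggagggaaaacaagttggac
Il1rn, first start: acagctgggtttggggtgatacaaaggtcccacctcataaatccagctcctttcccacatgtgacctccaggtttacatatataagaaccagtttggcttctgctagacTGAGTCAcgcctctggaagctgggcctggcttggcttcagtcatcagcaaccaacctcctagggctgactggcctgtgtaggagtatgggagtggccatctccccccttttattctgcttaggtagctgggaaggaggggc
Il1rn, second start: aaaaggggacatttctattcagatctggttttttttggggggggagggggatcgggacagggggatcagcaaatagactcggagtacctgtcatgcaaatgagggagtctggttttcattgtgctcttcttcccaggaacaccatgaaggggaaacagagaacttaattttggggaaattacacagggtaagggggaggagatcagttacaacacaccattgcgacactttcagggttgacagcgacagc

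A TATA box (TATAAA, searched on the strand of the gene) began 32 bases before the start of Il1a and 31 bases before that of Il1b. Among the 14 promoter windows of the 10 genes (250 bases before to 50 after a start), these were the only 2 with a TATA box, against 8.32% of all 32851 RefSeq windows. The AP-1 motif (TGANTCA, both strands) lay 12 bases before the Il1a start as TGACTCA and 141 bases before the first Il1rn start as TGAGTCA, and was in 7.81% of all windows. The PU.1 core (GAGGAA, both strands) began 41 bases before the Il1a start, also lay 27 bases after the first Il1rl1 start, and was in 28.3% of all windows. Searched on both strands, the NF-kappa-B decamer matched 1 of the 14 windows, at the second start of Il1r1, against 4.51% of all windows. C/EBP (TTNNGCAA) matched 4 windows, those of Il18bp, Il1rl2 and the first starts of Il1r1 and Il1rl1, against 10.8%, and the interferon-stimulated response element matched only that of Il1rap, against 3.44%. A match describes the letters of a window and is not evidence of binding.

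**Figure D1:**
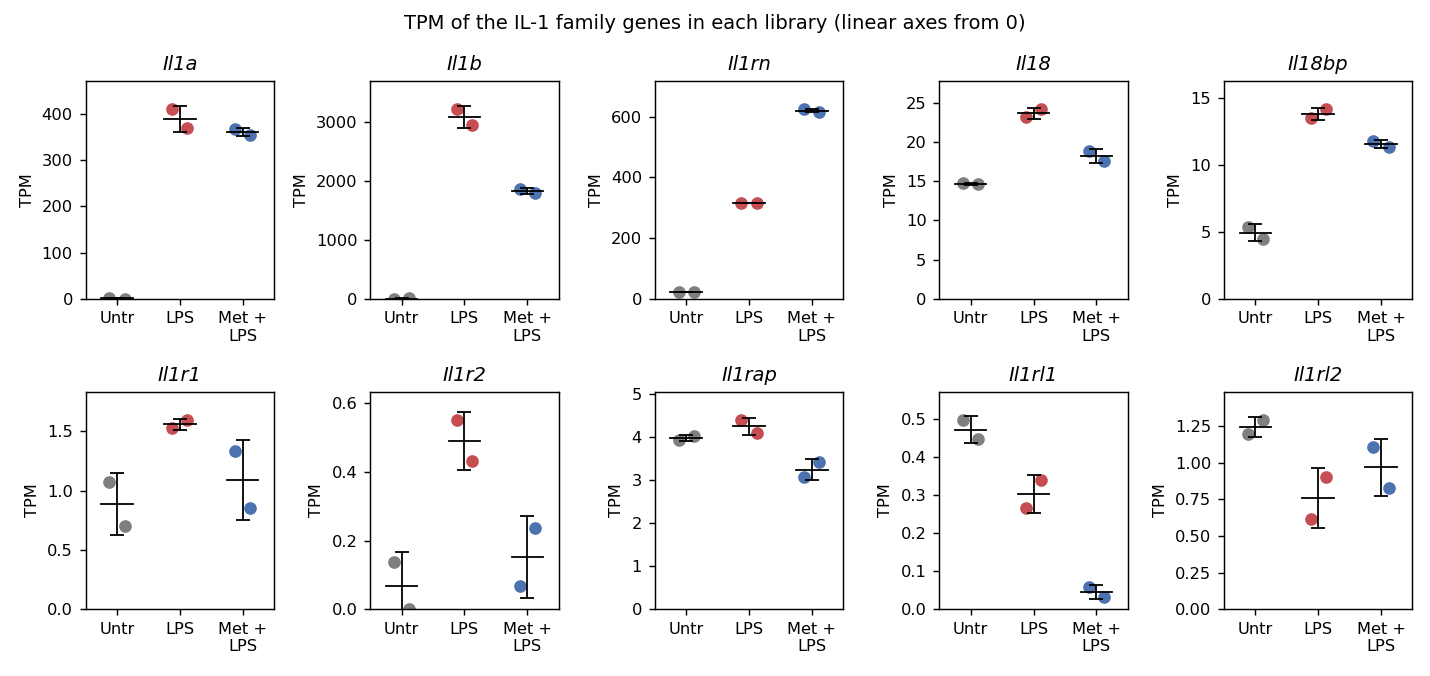
TPM of each of the 10 genes (vertical axes, linear from 0, scaled gene by gene) in untreated (Untr), LPS and Met + LPS libraries; points are libraries, bars the mean ± SD (n = 2). Il1a and Il1b are near 0 in untreated cells and high in both stimulated groups, while Il1rn climbs from 21.9 TPM in untreated cells to 316 in LPS and 620 in Met + LPS.

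Expression was read as TPM, a share of all transcripts in a library after scaling for length. Comparing genes within a library therefore depends on the exon length of each. These lengths were 5535 bases for Il1rn, 1907 for Il1b, 1974 for Il1a, 3026 for Il18bp and 1031 for Il18. All 7 macrophage markers examined were expressed above the filter (Lyz2 between 21200 and 35840 TPM, Adgre1 between 1351 and 1750). Some defining markers of other lineages were at or near 0 (Cd3e at most 0.0645 TPM and Ly6g at most 0.14), but others were not, with maxima of 33.7 TPM for Kdr, 17.4 for Elane, 16.7 for S100a9, 12.3 for Lck and 9.44 for S100a8. The summed TPM of the macrophage list was 35260 and 34530 in LPS and 28760 and 28880 in Met + LPS. This sum mostly follows Lyz2, with means of 26840 in LPS and 21290 in Met + LPS. The markers did not move alike: Cd68 was at 4777 and 4783, Csf1r at 1325 and 1259, and Fcgr1 at 165 and 74.4. Of the 7, only Fcgr1 passed the cut-offs. Among markers of other lineages, Lck passed upward with LPS (log2 fold change 2.82) and downward in Met + LPS against LPS (-0.99). Ccr7 passed upward in Met + LPS against LPS (1.05). Libraries held 25457016 to 30762754 reads, as recovered from the table. The median over all tested genes was -0.48 (log2) for LPS against untreated cells and -0.03 for Met + LPS against LPS, so a member at 0 in the first comparison stood above the typical gene. In bulk RNA, fewer cells of a type and less RNA per cell cannot be told apart. The cells were seeded in duplicate and nothing states that duplicates came from different mice, so p-values measure the spread between these libraries, which may be technical.

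Fold changes below are differences of log2(TPM + 1) in limma, with Benjamini-Hochberg adjustment over 12755 genes, and understate the change of low genes. The study's cut-offs were used: an adjusted p below 0.01 and a log2 fold change, in either direction, of 2 or more for LPS against untreated and 0.7 or more for Met + LPS against LPS. Of the 10 genes, 8 had at least 1 TPM in 2 libraries and were tested, and Il1r2 and Il1rl1 were below this filter. In LPS against untreated, 3 were past the cut-offs upward (3.72% of all tested genes were) and 0 downward (2.37% of all). By adjusted p alone, 5 were higher in LPS (16.2% of all tested genes) and 0 lower (60.1% of all). Il1a (0.933 and 0.283 TPM in untreated cells) met the filter only through stimulated libraries, and Il1r1 (1.07 and 0.702) needed at least 1 of them. The shares for LPS are therefore given for scale, and the upward counts were not tested against them. In Met + LPS against LPS, 1 passed upward (4.19% of all) and 1 downward (4.09% of all). By adjusted p alone these counts were 1 higher (14.5% of all) and 2 lower (18.0% of all). Both comparisons use the same LPS libraries.

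Il1b (ENSMUSG00000027398) encodes the main secreted IL-1 of activated macrophages. It stood at 2.76 and 4.17 TPM in the untreated libraries, 3207 and 2942 in LPS, and 1865 and 1793 in Met + LPS. The 3 groups did not overlap, and both Met + LPS libraries lay between the untreated and the LPS libraries. The rise with LPS was 9.44 on the log2 scale (SE 0.137, adjusted p = 1.7e-08 in limma), the second largest increase of all tested genes in this fit and the fifth largest with voom. In LPS it ranked 37 and 42 among all genes by TPM. The fall with metformin pretreatment was smaller, at -0.75 (SE 0.137, 95% interval -1.08 to -0.42, adjusted p = 0.00471). This call is near both cut-offs. Its adjusted p was 0.0134 with a pseudocount of 0.1, 0.0294 without the filter on low genes and 0.0177 without a variance trend, and between 0.0212 and 0.0356 when either library of either stimulated group was left out, with fold changes between -0.81 and -0.69. The adjusted p was 7.8e-04 with a filter of 5 TPM, 0.00785 with a replicate block and 4.6e-12 with limma's voom on recovered reads. With only the 4 stimulated libraries in the limma fit it was 0.00168 (95% interval -0.90 to -0.60). The main interval uses a spread shared with the untreated libraries, where Il1b was low.

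Il1a (ENSMUSG00000027399) encodes IL-1 alpha, which is active without caspase-1 and acts as an alarmin when released from damaged cells. It stood at 0.933 and 0.283 TPM in untreated cells, from only 14 and 4 reads, at 410 and 370 in LPS, and at 367 and 355 in Met + LPS. The stimulated libraries were all far above the untreated libraries and lay close to each other. The rise with LPS was 7.95 (SE 0.174, adjusted p = 1.0e-07 in limma), and 9.46 with voom on recovered reads. The difference between Met + LPS and LPS was -0.11 (95% interval -0.53 to 0.31, adjusted p = 0.638). The interval uses a spread shared with the untreated libraries. With only the 4 stimulated libraries in the fit for this comparison it was -0.27 to 0.05 (adjusted p = 0.21), and voom gave an adjusted p of 0.0658. Both Met + LPS libraries lay below both LPS libraries. The genes are neighbours, 54.6 kb apart on the same strand, and the ratio of Il1b to Il1a was 7.89 ± 0.10 (SD, n = 2) in LPS and 5.07 ± 0.0192 in Met + LPS. Il1a shares 11.2% of its exon bases with the antisense gene Gm14023, whose level was at most 2.0 TPM. Il1b shares 25 exon bases with the antisense Il1bos (at most 3.79 TPM), Il18bp shares 80 with Numa1 (50.8 to 125 TPM) and Il1rap shares 552 with Gm20319 (at most 0.10 TPM). Whether reads were counted by strand is not given in the sources used here.

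Il1rn (ENSMUSG00000026981) encodes the IL-1 receptor antagonist. It was the most abundant of the 10 in untreated cells, at 21.96 and 21.89 TPM, and stood at 317 and 316 in LPS and 624 and 616 in Met + LPS. The groups were widely separated and the duplicates nearly equal. LPS raised it by 3.79 on the log2 scale (SE 0.0296, adjusted p = 1.7e-09 in limma), a 14.4-fold change in mean TPM. Metformin pretreatment raised it further, by 0.97 (SE 0.0296, 95% interval 0.90 to 1.04, adjusted p = 7.9e-06). The table gives 1 value per gene and does not separate the secreted from the intracellular forms, which use different starts. Neutrophils also make IL-1 receptor antagonist. The summed TPM of 8 neutrophil markers was 30.1 and 32.7 in untreated cells, 26.5 and 28.0 in LPS and 45.5 and 43.4 in Met + LPS. All 5 of these markers that were tested had higher mean TPM in Met + LPS than in LPS, from 1.45 times for S100a8 to 1.81 times for Elane. None passed the cut-offs. Mean TPM in untreated, LPS and Met + LPS was 16.3, 8.64 and 15.6 for Elane, and 4.90, 9.08 and 14.3 for S100a9. Cxcr2 was at 0 in all stimulated libraries and Ly6g was at 0 in all but Met + LPS replicate 1 (0.14 TPM). The part of such cells in the Il1rn result was not tested.

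**Figure D2:**
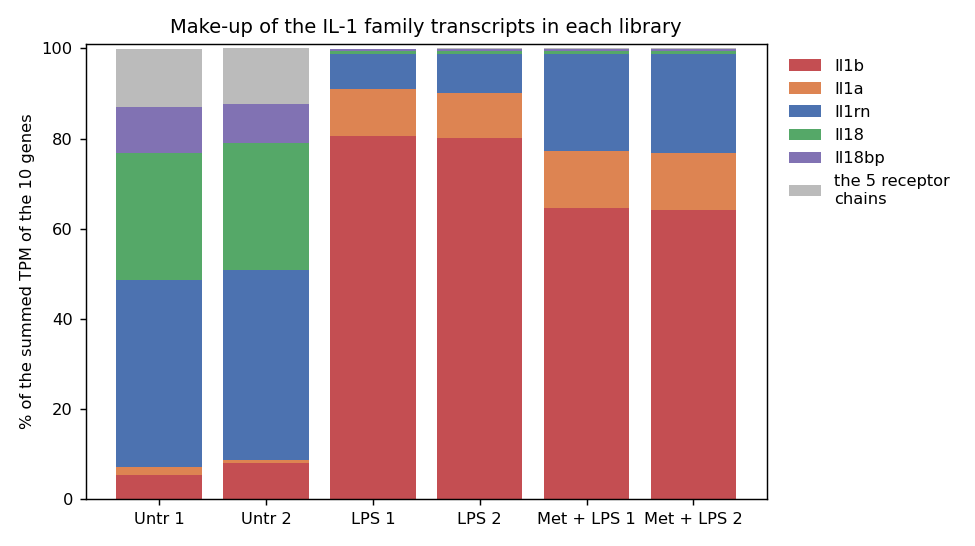
Share of each gene in the summed TPM of the 10 genes (vertical axis, %), 1 bar per library, with the 5 receptor chains pooled. Il1rn and Il18 fill most of the untreated bars, and Il1b takes 80.6% and 80.1% of the LPS bars and 64.5% and 64.1% of the Met + LPS bars.

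These 3 genes held most of the family's transcripts in stimulated cells. The summed TPM of the 10 was 52.7 and 51.9 in untreated cells, 3978 and 3673 in LPS, and 2892 and 2797 in Met + LPS. Il1rn held 41.7% and 42.2% of it in untreated cells, 7.96% and 8.60% in LPS and 21.6% and 22.0% in Met + LPS. The order of mean TPM was Il1b, Il1a, Il1rn in LPS and Il1b, Il1rn, Il1a in Met + LPS, with no overlap between neighbours in either group. In untreated cells the order was Il1rn, Il18, Il18bp, Il1rap, Il1b, Il1rl2, Il1r1, Il1a, Il1rl1 and Il1r2, and the libraries of Il1rap and Il1b, of Il1r1 and Il1a, and of Il1a and Il1rl1 overlapped.

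**Figure D3:**
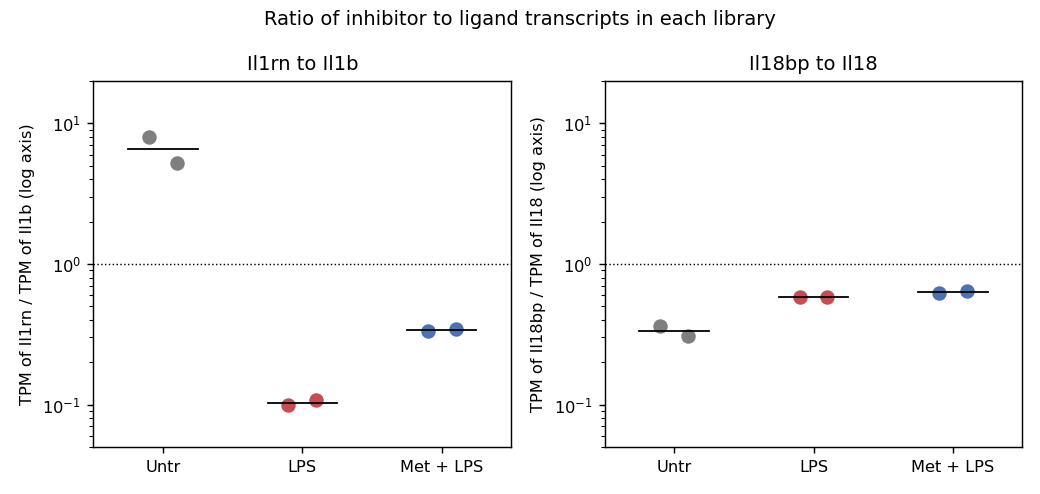
Ratio of inhibitor to ligand TPM (vertical axes, logarithmic) for Il1rn to Il1b and Il18bp to Il18 in each library; points are libraries, lines group means (n = 2), and the dotted line marks a ratio of 1. Il1rn to Il1b falls from above 1 in untreated cells to 0.103 in LPS and stands at 0.339 in Met + LPS, while Il18bp to Il18 stays below 1 in all 6 libraries.

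The TPM of Il1rn exceeded that of Il1b 7.96 and 5.25 times in untreated cells. The ratio was 0.0987 and 0.107 in LPS and 0.334 and 0.344 in Met + LPS, so the 3 groups did not overlap. Group means were 6.60 ± 1.92, 0.103 ± 0.00614 and 0.339 ± 0.00649 (SD, n = 2). An exact permutation test of 2 against 2 libraries cannot give a p below 0.333, so the ratio is described by its values alone. Which gene of a pair is the more abundant depends on the length scaling. In recovered reads, not scaled for length, Il1b (26890 and 30255) and Il1rn (26091 and 30162) were nearly equal in Met + LPS. In LPS, reads of Il1rn (13337 and 12758) exceeded those of Il1a (6167 and 5326).

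Il18 encodes an IL-1 relative that drives interferon-gamma production by lymphocytes, and its precursor is present in resting macrophages. Il18 (ENSMUSG00000039217, chr9:50554827-50581840) stood at 14.8 and 14.6 TPM in untreated cells, 23.2 and 24.2 in LPS, and 18.9 and 17.6 in Met + LPS. The 3 groups did not overlap, with Met + LPS in between. It was higher in LPS by 0.65 (adjusted p = 3.9e-05 in limma) and lower in Met + LPS than in LPS by -0.36 (SE 0.0543, adjusted p = 0.00212), both below the fold cut-offs. The second adjusted p was 0.0106 with only the 4 stimulated libraries in the fit and lay between 0.00618 and 0.0166 when 1 library was left out, above 0.01 without either untreated library, LPS replicate 2 or Met + LPS replicate 2. Il18bp (ENSMUSG00000070427, chr7:102014885-102018690) was at 5.39 and 4.47 TPM in untreated cells, 13.5 and 14.1 in LPS, and 11.8 and 11.3 in Met + LPS. It was higher in LPS by 1.32 (adjusted p = 1.3e-05). The difference with metformin pretreatment was -0.24 (95% interval -0.45 to -0.03, adjusted p = 0.0617). The ratio of Il18bp to Il18 TPM averaged 0.335 in untreated cells, 0.582 in LPS and 0.632 in Met + LPS. In recovered reads, not scaled for length, Il18bp exceeded Il18 in LPS (310 and 312 against 182 and 182).

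**Figure D4:**
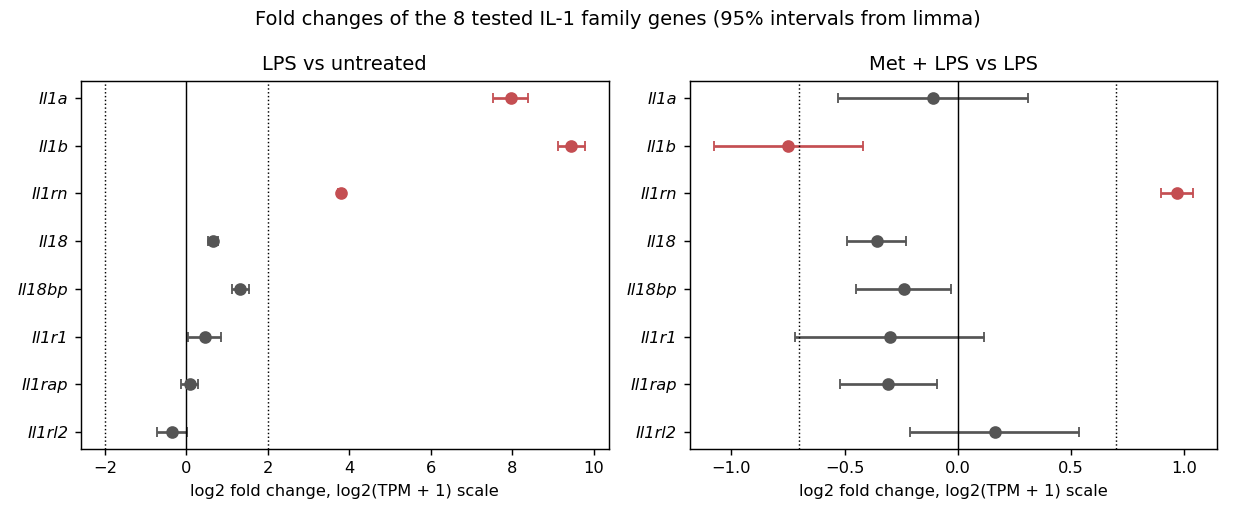
Log2 fold changes of the 8 tested genes on the log2(TPM + 1) scale (horizontal axes) with 95% intervals from limma, LPS against untreated on the left and Met + LPS against LPS on the right; red points passed the cut-offs and dotted lines mark the fold cut-offs. Il1b, Il1a and Il1rn stand apart on the left, and on the right only Il1rn (0.97) and Il1b (-0.75) pass.

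The receptor chains were low throughout, with none above 4.39 TPM. Il1r2, Il1r1, Il1rl2 and Il1rl1 belong to a run of 6 IL-1 receptor family genes that spans 478 kb of chromosome 1, all on the plus strand. Il1rap (ENSMUSG00000022514, chr16:26581704-26730117), the accessory chain shared by the IL-1, IL-33 and IL-36 receptors, was the most abundant of the 5. It stood at 3.92 and 4.02 TPM in untreated cells, 4.39 and 4.10 in LPS, and 3.07 and 3.41 in Met + LPS. The LPS difference was 0.08 (95% interval -0.14 to 0.29, adjusted p = 0.436 in limma), and became 0.49 (adjusted p = 0.00236) when libraries were rescaled by the median ratio. In Met + LPS it was -0.31 from LPS (adjusted p = 0.0279, and 0.00117 with voom), both Met + LPS libraries lying below both LPS libraries.

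Il1r1 (ENSMUSG00000026072, chr1:40225080-40317257), the signalling receptor for IL-1 alpha and IL-1 beta, stood at 1.07 and 0.702 TPM in untreated cells, 1.53 and 1.59 in LPS, and 1.33 and 0.852 in Met + LPS. These values rest on 32 to 74 reads per library. The LPS difference was 0.45 (adjusted p = 0.0463 in limma) and 0.71 after rescaling (adjusted p = 0.00933). That in Met + LPS was -0.30 (95% interval -0.72 to 0.11, adjusted p = 0.197 in limma). With voom on recovered reads the LPS difference was 0.85 (adjusted p = 0.00308) and that in Met + LPS was -0.57 (adjusted p = 0.0365). Il1rl2 (ENSMUSG00000070942, chr1:40324610-40367562), the receptor for IL-36 cytokines, stood at 1.20 and 1.29 TPM in untreated cells, 0.617 and 0.905 in LPS, and 1.11 and 0.829 in Met + LPS. Its LPS libraries were both below the untreated libraries, at -0.35 (adjusted p = 0.0700) or -0.71 with voom (adjusted p = 0.00877). After rescaling by the median ratio the difference was only -0.09 (adjusted p = 0.629 in limma). Its Met + LPS and LPS libraries overlapped (0.16, 95% interval -0.21 to 0.54, adjusted p = 0.431).

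The remaining pair was too low for the main test and is given as recovered reads. Il1r2 (ENSMUSG00000026073, chr1:40074079-40125231), the decoy receptor, had 2 and 0 reads in untreated cells, 8 and 6 in LPS, and 1 and 4 in Met + LPS. These counts do not overlap between LPS and the other groups but are very few. A voom fit of 15918 genes with at least 10 recovered reads was added after the data were seen. In it the LPS difference of Il1r2 was 2.72 (adjusted p = 0.00548) and that in Met + LPS was -1.62 (adjusted p = 0.0620). Il1r2 reached 10 reads only through the LPS libraries, where it was highest, so these values only describe it. Il1rl1 (ENSMUSG00000026069, chr1:40429570-40465415) encodes ST2, the receptor for IL-33. It had 26 and 22 reads in untreated cells, 14 and 17 in LPS, and 3 and 2 in Met + LPS. Every Met + LPS library was below every LPS library. In the added voom fit the LPS difference was -0.62 (adjusted p = 0.10), and Met + LPS was lower than LPS by -2.58 (SE 0.581, 95% interval -3.77 to -1.39, adjusted p = 5.9e-04). On the log2(TPM + 1) scale without the filter it was -0.32 (adjusted p = 0.0209). ST2 is also a gene of mast cells and basophils: the summed TPM of 6 markers of those cells was 1.61 and 0.977 in untreated cells, 0.397 and 0.181 in LPS, and 0.316 and 0.344 in Met + LPS, with Fcer1a and Tpsb2 at 0 in all 6 libraries. Cpa3 made up most of this sum in untreated cells (1.56 and 0.920 TPM). It stood at 0.0866 and 0.181 in LPS and 0.262 and 0.298 in Met + LPS. Gata1 was at 0 in LPS and at 0.0543 and 0.0463 in Met + LPS. Mcpt8 (0.263 TPM) and Ms4a2 (0.0467 TPM) were found in LPS replicate 1 alone. All 6 markers were below the filter and were not tested. The part of such cells in the Il1rl1 values was not tested.

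The rest of the IL-1 pathway was read from 3 lists. Of 11 other family members, 4 were tested and 5 were at 0 in all libraries. The 1 that rose with LPS past the cut-offs (3.72% of all tested genes did) was Il33, an alarmin ligand of ST2. It had 0 reads in both untreated libraries, 91 and 80 in LPS and 52 and 60 in Met + LPS, at least 28.2-fold higher in LPS than the limit set by 3 reads per untreated library. In Met + LPS it was -0.56 from LPS (adjusted p = 0.00720 in limma), below the fold cut-off. The median log2 fold change of the 4 tested genes was 0.41 for LPS and -0.25 for Met + LPS. Il33 and Il1f9 (0.0798 and 0 TPM in untreated cells) passed the filter only through stimulated libraries. The 3.72% is therefore given for scale only, and the LPS median is not set against that of all tested genes.

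Of 17 genes of IL-1 receptor signalling, all tested, LPS raised 3 past the cut-offs and lowered 1, and metformin pretreatment moved 0 in either direction past them. Over all tested genes LPS raised 3.72% and lowered 2.37%, and metformin pretreatment raised 4.19% and lowered 4.09%. The risers were Nfkbiz (5.37), Nfkbia (4.75), both of the I-kappa-B family, and the ubiquitin ligase Peli1 (4.08). Tab1, an adaptor of the kinase TAK1, fell by 2.56 on the log2 scale. The adaptor Myd88 was 1.34 higher with LPS, below the fold cut-off. The list's medians were 0.21 for LPS and 0.04 for Met + LPS, beside -0.48 and -0.03 over all tested genes.

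Of 12 genes for processing and release of IL-1 family cytokines, all tested, LPS raised 2 past the cut-offs: the inflammasome sensor Nlrp3 (3.73) and the inflammatory caspase Casp4 (2.94), beside 3.72% of all tested genes. Metformin pretreatment lowered 2, beside 4.09% of all tested genes. Pycard, which encodes the inflammasome adaptor ASC, stood at 30.3 and 30.9 TPM in LPS and 15.4 and 15.5 in Met + LPS (-0.94, SE 0.0426, adjusted p = 2.0e-05 in limma). Gsdmd, which encodes the pore-forming gasdermin D, stood at 192 and 208 TPM in LPS and 120 and 116 in Met + LPS (-0.76, SE 0.051, adjusted p = 8.0e-05). Nlrp3 differed by -0.01 between Met + LPS and LPS (adjusted p = 0.855). The list's medians were 0.12 for LPS and -0.32 for Met + LPS, beside -0.48 and -0.03 over all tested genes.

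The tested genes with the closest profiles over the 6 libraries, by Euclidean distance of log2(TPM + 1) from the untreated mean, were Cxcl10 (0.74), Acod1 (0.86) and Ccl7 (1.10) for Il1b. Cxcl10 and Ccl7 are chemokines and Acod1 makes itaconate. Their Met + LPS differences from LPS were -0.37 (Cxcl10), 0.09 (Acod1) and -0.04 (Ccl7), against -0.75 for Il1b. For Il1a the closest were the cytokine subunit Il27 (0.56), the chemokine Ccl5 (0.74) and the antiviral gene Rsad2 (0.94). Their Met + LPS differences were -0.59, -0.49 and 0.17, against -0.11 for Il1a. For Il1rn the closest were the receptor Tlr2 (0.60), the receptor Hcar2 (0.65) and the transcription factor Maff (0.78). Their Met + LPS differences of 0.43, 0.43 and 0.21 were smaller than the 0.97 of Il1rn.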

How the data were processed

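RNA-seq of poly(A) RNA was available for 6 BMDM libraries. The authors deposited 1 table of TPM per gene, made from reads processed with STAR 2.6.1d, SAMtools 1.9 and featureCounts (Subread 1.6.3) on GRCm38, per the submitters' processing notes. How counts were turned into TPM is not given in the sources used here. Groups followed the labels, and members and gene lists were chosen with earlier results of these data known. All 10 members are reported, with genes of the 3 pathway lists past the cut-offs and the 3 nearest profiles of Il1a, Il1b and Il1rn. Other genes named (Myd88, markers) were chosen after their values were seen.

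Genes with at least 1 TPM in 2 libraries entered limma 3.58.1 (R 4.3.3; log2(TPM + 1), all 6 libraries in 1 fit, variance trend, 3 residual degrees of freedom). TPM times exon length (GENCODE annotation, GRCm38) gave whole reads, within 0.02 of a read, for 96.1% to 96.3% of values, so reads were recovered for depth and for limma's voom. Depth was 25457016 to 30762754 reads. The fit was tested on simulated data. Alternatives were another pseudocount, filters, scaling, voom, a replicate block, a pairwise fit and leaving out each library.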

Additional observations from a re-analysis of the deposited data

How the results depend on the processing

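The fold changes of the 8 tested members kept their direction under every alternative run. Alternatives were not tabulated for the other genes named. The increases of Il1b, Il1a and Il1rn with LPS and of Il1rn with metformin pretreatment passed their cut-offs in all 16 alternatives. The fall of Il1b in Met + LPS lost its call in 7 of 16, so the number of members past the cut-offs in Met + LPS was 1 rather than 2 with a pseudocount of 0.1, without the filter and without the variance trend, and 1 to 2 when 1 library was left out; the cause was not tested. For LPS, 776 genes passed (474 higher and 302 lower), against 1512 with a pseudocount of 0.1 (697 and 815), 1596 with voom (718 and 878), 2169 with voom on genes with at least 10 recovered reads (added after the data were seen) and 792 after median-ratio rescaling (663 and 129). With a replicate block, 777 genes passed for LPS and 1044 for Met + LPS, with 3 and 2 members, and same-numbered libraries did not deviate together (correlations -0.00365 to 0.0284), so the numbers are not treated as pairs. In the voom fit on genes with at least 10 recovered reads, 4 of the 10 members passed for LPS, beside 2169 of all 15918 genes. For Met + LPS 3 members passed, beside 1525 of all genes in that fit. The added members were Il1r2 for LPS, which met that filter only through its LPS libraries, and Il1rl1 for Met + LPS. Depth limits Il1r2 and Il1rl1, which had at most 8 and 26 reads per library.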
